A study of Homo sapiens with 8 samples.

Results

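Transient regions were stretches of chromatin that carried an ATAC-seq peak early after TGFβ1 addition and none at the end of the time course. They were chosen by the peak calls themselves. The 4 deposited peak lists were merged wherever peaks shared at least 1 bp, and a region was kept when it had no solvent peak, no 72 h peak, and a peak either at 6 h alone or at both 6 h and 24 h. Of 126658 merged regions, 5602 (4.42%) met this rule, and 2575 of them had a peak at 6 h alone while 3027 had one at 6 h and at 24 h. The rule drew on 24437 regions with a 6 h peak and no solvent peak, of which the transient ones were 22.9%. The 24437 are called gained at 6 h below, which names the peak calls alone. For comparison, 18085 regions had peaks at 6, 24 and 72 h and none in solvent, and these are called kept regions.

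The cells were MCF10A, an immortalised, non-tumorigenic line of human mammary epithelial cells, unmodified in all groups. They received the carrier solvent, which the labels place at time 0, or TGFβ1 at 5 ng/ml for 6, 24 or 72 h, with 2 biological replicates in each of the 4 conditions and 8 libraries in all. TGFβ1 and solvent were renewed in the longer treatments. The authors called 1 peak list per condition on both replicates together, so no value below has a replicate check, no p-value is given, and all 95% confidence intervals (CI) cover counting error over regions only. A region absent from a list had no peak that passed the calling threshold, which does not show that its chromatin was closed.

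As background, ATAC-seq uses a transposase that inserts into DNA not wrapped in nucleosomes, and its peaks mark promoters, enhancers and other sites held open by DNA-binding proteins. TGFβ1 binds receptor kinases that phosphorylate SMAD2 and SMAD3, and these enter the nucleus with SMAD4, bind short SMAD boxes and act beside other factors such as AP-1, the dimers of FOS and JUN proteins. In mammary epithelial cells the pathway is known for growth arrest and for the epithelial-mesenchymal transition (EMT), in which junctions are dissolved and actin and matrix genes are induced.

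The lists held between 86209 peaks (solvent) and 118433 peaks (24 h), with median peak areas between 725 and 829. As a check of the cell type, all 10 mammary epithelial markers, among them the keratin genes KRT5, KRT14 and KRT18, TP63 and CDH1, had a peak within 1 kb of a transcription start site (TSS) in every list. Of the fibroblast markers 3 of 6 had one in every list, of the immune markers 2 to 3 of 6 and of the endothelial markers 2 to 3 of 5. COL3A1, DCN and LUM (fibroblast), CD3E and LYZ (immune) and CDH5 and VWF (endothelial) had none in any list. An open promoter is not a measure of expression.

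The sequences from 100 bases before to 100 after the 6 h summit show what these regions look like. Those first listed belong to the regions of largest 6 h peak area in each class, taking windows that held a motif first and leaving out those that touch an untranslated exon part. LINC01657 and ENSG00000248927, which had larger areas than LINC00511, held none of the motifs and are not printed. All are given 5′ to 3′ on the plus strand of hg38, each under its nearest gene and with its class. Capitals mark the letters of the motifs searched for, on either strand.
BHMT (chr5:79133697-79133897, 6 h alone): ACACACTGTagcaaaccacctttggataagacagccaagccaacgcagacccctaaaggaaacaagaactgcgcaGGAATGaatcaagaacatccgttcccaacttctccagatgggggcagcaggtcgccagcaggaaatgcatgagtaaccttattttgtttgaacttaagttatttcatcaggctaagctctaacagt
DSG3 (chr18:31449289-31449489, 6 h alone): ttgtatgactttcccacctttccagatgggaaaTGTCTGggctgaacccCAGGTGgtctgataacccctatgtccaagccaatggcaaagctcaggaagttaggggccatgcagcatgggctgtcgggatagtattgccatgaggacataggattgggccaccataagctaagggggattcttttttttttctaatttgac
LINC00511 (chr17:72591266-72591466, 6 h alone): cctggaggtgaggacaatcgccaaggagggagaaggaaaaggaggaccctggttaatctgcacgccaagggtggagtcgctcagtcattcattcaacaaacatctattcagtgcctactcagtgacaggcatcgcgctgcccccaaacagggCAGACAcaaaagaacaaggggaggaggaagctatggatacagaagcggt
NHERF1 (chr17:74760424-74760624, 6 h and 24 h): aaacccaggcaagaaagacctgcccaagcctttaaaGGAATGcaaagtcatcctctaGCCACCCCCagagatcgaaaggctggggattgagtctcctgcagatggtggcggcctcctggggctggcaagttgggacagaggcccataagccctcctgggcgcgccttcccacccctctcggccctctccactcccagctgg
ENSG00000287571 (chr4:187184652-187184852, 6 h and 24 h): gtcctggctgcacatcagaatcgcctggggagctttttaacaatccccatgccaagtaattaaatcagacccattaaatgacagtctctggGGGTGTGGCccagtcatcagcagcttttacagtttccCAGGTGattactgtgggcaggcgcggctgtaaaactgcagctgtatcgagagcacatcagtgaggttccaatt

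In these windows the capitals stand for the TEAD motif and the steroid receptor motif near BHMT, the SMAD box and the SNAIL and ZEB E-box near DSG3, and the SMAD box near LINC00511. They stand for the TEAD and KLF motifs near NHERF1 and for the KLF motif and the E-box near ENSG00000287571. None of these windows held the AP-1 motif. To show the motifs whose shares are compared further on, the region of largest 6 h area that held AP-1 in each class, C/EBP in regions of 6 h alone and the SMAD box in regions of 6 h and 24 h was added, and this addition was chosen after the values were seen.
DNAI2 (chr17:74282864-74283064, 6 h alone): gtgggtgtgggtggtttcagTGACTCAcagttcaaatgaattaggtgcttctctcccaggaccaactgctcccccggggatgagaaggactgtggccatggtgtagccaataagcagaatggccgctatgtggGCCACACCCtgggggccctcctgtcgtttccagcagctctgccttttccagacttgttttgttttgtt
LINC02747 (chr11:69479873-69480073, 6 h and 24 h): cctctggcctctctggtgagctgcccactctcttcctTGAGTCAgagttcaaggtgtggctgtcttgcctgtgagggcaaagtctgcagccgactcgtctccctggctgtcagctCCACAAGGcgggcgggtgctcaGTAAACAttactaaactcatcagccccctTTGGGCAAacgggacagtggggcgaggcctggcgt
MEF2A (chr15:99614379-99614579, 6 h alone): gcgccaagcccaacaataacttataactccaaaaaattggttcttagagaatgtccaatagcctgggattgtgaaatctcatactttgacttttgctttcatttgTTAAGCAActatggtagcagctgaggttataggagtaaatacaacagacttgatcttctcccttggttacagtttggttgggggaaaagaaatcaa
LINC01235 (chr9:13532492-13532692, 6 h and 24 h): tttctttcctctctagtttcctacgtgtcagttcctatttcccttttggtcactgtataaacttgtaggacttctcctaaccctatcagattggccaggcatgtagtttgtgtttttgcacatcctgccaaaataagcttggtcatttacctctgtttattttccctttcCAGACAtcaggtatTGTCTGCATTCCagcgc

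DNAI2 and LINC02747 held 1 AP-1 motif each, beside a KLF motif in the former and beside C/EBP, FOX and CTCF motifs in the latter. MEF2A held 1 C/EBP motif, starting at base 106 counted from the 5′ end of the window. LINC01235 held the SMAD box once on each strand, starting at bases 171 and 185, and a TEAD motif that adjoins the latter without sharing a base.

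Peak size is given as the AUC, an area reported by the peak caller Genrich that is larger for wider and more significant peaks and also rises with read depth. Every deposited peak had an AUC of at least 200. Transient regions lay just above that limit. In regions of 6 h alone the 6 h AUC ran from 200 to 587 with a median of 236 (95% CI 234 to 238), and in regions of 6 h and 24 h from 200 to 765 with a median of 263 (261 to 266). Kept regions reached 12800 with a median of 333 (330 to 335), and regions open in every list had a median of 1216. At those same regions the median was 793 in solvent, 1265 at 24 h and 1204 at 72 h. Solvent areas were thus lower even there, and whether this left transient regions without a solvent peak was not tested. The AUC separated the classes through the calling threshold, so these values describe the selection.

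**Figure D1:**
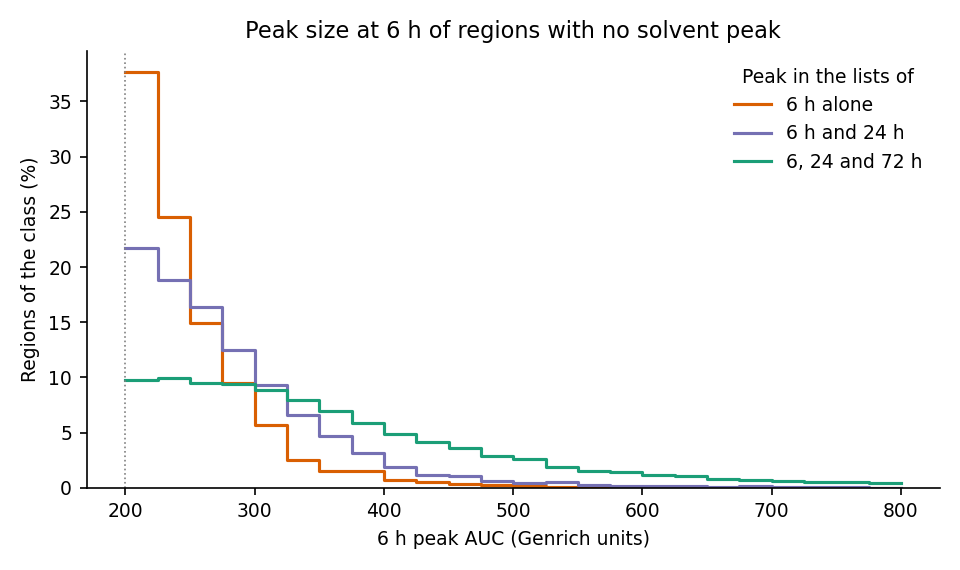
Share of regions (%) in each step of 25 units of 6 h peak AUC, in Genrich units, for transient regions with a peak at 6 h alone, transient regions with peaks at 6 h and 24 h, and kept regions. The dotted line is the calling threshold of 200, and the axis ends at 800, above which lay 563 regions without a solvent peak, none of them transient. Regions of 6 h alone are crowded into the lowest steps, with 62.2% under 250.

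A 6 h AUC of at least 400 was reached by 2.29% of the regions of 6 h alone, 6.77% of the regions of 6 h and 24 h and 31.9% of the kept regions. Regions of 6 h alone were also narrower, with a median width of 197 bp against 210 bp for 6 h and 24 h and 274 bp for kept regions. Just inside the rule, 1357 of the 5602 transient regions (24.2%) had a 6 h AUC under 220. Just outside it, 798 of the 18085 kept regions (4.41%) were kept by a 72 h peak with an AUC under 220. The count of transient regions depended on list length. When each list was cut to its 86209 peaks of largest AUC, 2362 regions were transient, and those of 6 h alone (1594) then outnumbered those of 6 h and 24 h (768). With only members of a 6 h AUC of at least 400, 264 remained, 59 of 6 h alone and 205 of 6 h and 24 h.

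In regions of 6 h and 24 h both areas could be read. The median 24 h AUC was 267 (95% CI 264 to 271), and 48.4% of these regions had a lower AUC at 24 h than at 6 h. Their median log2 ratio of 24 h over 6 h was 0.01 (0.00 to 0.03), against 0.44 (0.43 to 0.45) in kept regions and -0.01 in regions open in every list. A fall to 1/2 of the 6 h area or less was seen in 0.793% of them and a rise to 2 times or more in 0.396%. Among the 205 regions whose 6 h AUC was at least 400, the median log2 ratio was -0.39 and 83.4% were lower at 24 h, but this subset was chosen on the 6 h value that enters the ratio. The lists were not scaled to each other, so ratios between lists carry any difference in depth.

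The region of largest 6 h AUC that was also open at 24 h lay 2564 bp upstream of the TSS of TAS1R3, a subunit of sweet and umami taste receptors, at chr1:1327707-1329283. Its AUC was 765 at 6 h and 739 at 24 h, and its summit fell in a 3' UTR. A region in an intron 1479 bp upstream of NHERF1, a scaffold protein that ties membrane proteins to ezrin, had 761 at 6 h and 434 at 24 h (chr17:74760465-74761068). At the TSS of FAM131B, with a summit 3 bp from it and 84.1% GC, the values were 740 and 664 (chr7:143362255-143362948). All 3 were proximal and GC-rich.

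The next regions in order of 6 h AUC were mixed in GC content. Near the lncRNA gene ENSG00000287571 the AUC was 719 at 6 h and 270 at 24 h (chr4:187184470-187184880, intergenic, 49.8% GC). In an intron 44467 bp upstream of a TSS of LINC01235 it was 718 and 576 (chr9:13532404-13532789, 41.8% GC). In an intron of L3MBTL3, a reader of methylated lysines, 552 bp downstream of the TSS, it was 695 and 426 (chr6:130019817-130020639, 91.0% GC). All of the 6 largest regions had a lower area at 24 h than at 6 h. They were ranked on the 6 h area that enters this comparison, and over the whole class 48.4% were lower at 24 h.

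The steepest fall was in an intron of SBF2, a myotubularin-related protein, where the AUC went from 651 at 6 h to 203 at 24 h, a log2 ratio of -1.68 (chr11:9802300-9802798, 10320 bp downstream of the nearest SBF2 TSS). Near MARCHF5, a mitochondrial ubiquitin ligase, the AUC went from 531 to 203, and 14462 bp upstream of the pseudogene SRMP1 from 538 to 210. In an intron 130665 bp downstream of a TSS of STX18-AS1 it went from 545 to 215. In an intron of VGLL4, a cofactor that represses TEAD proteins, it went from 514 to 216, 2548 bp downstream of a TSS (chr3:11716670-11717131). All 5 ended under 220.

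Regions that grew between 6 h and 24 h and then had no 72 h peak were fewer at this size. The largest rises were near the snRNA pseudogene RNU6-1312P, from 479 to 723, and 410 bp downstream of a TSS of NUMBL, a regulator of Notch signalling, from 422 to 638, each a log2 ratio of 0.60. Near ENSG00000289393 the area rose from 465 to 688. At EMX2OS it rose from 453 to 618 and at LINC00595 from 450 to 593. The nearest 72 h peaks of these regions lay 2252 to 5306 bp away.

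Among regions of 6 h alone the largest area was 587, in an intron of BHMT, an enzyme of methionine synthesis, 12516 bp downstream of the TSS (chr5:79133707-79134154, 45.8% GC). The region at GATA2-AS1, 654 bp from a TSS of the transcription factor gene GATA2, had 581 (chr3:128489913-128490319, 70.1% GC). An intergenic region 56403 bp upstream of LINC01657 had 566 (chr1:175820592-175821069, 34.3% GC). In an intron of DSG3, a desmosomal cadherin of stratified epithelia, 1648 bp downstream of the TSS, the area was 554 (chr18:31448911-31449469). ENSG00000248927 and LINC00511 followed with 553 and 544. These 6 regions ranged from 34.3% to 70.1% GC, and 3 of them were proximal.

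Position was compared next. Regions were called proximal if they reached to within 3 kb of a GENCODE 44 TSS or overlapped a first exon or a 5' UTR. Transient regions were proximal in 37.5% of cases (95% CI 36.2 to 38.8), with 38.3% (36.5 to 40.2) at 6 h alone and 36.8% (35.1 to 38.5) at 6 h and 24 h. The difference between the classes was 1.56 percentage points, with an interval of -0.981 to 4.11 that includes 0. With lists of equal length it was 5.53 points (1.57 to 9.36), and with an AUC of at least 400 in every list 3.28 points (0.453 to 6.12). With proximal set at 1 kb it was -0.190 points (-2.35 to 1.98). For members of a 6 h AUC of at least 400 it was -2.02 points (-15.6 to 12.3). Kept regions were proximal in 22.8% (22.2 to 23.4), which was 14.7 points (13.3 to 16.1) less than transient regions, and all merged regions in 34.6%. This gap was smaller away from other peaks. It was 8.73 points when peaks within 500 bp were merged and 7.29 points (5.72 to 8.90) among regions over 1 kb from any solvent peak and, for transient regions, any 72 h peak, and the share of transient regions that were proximal fell to 27.9%.

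Some transient regions lay close to peaks of the solvent or the 72 h list, counted separately. A solvent peak lay within 500 bp of 24.0% of the regions of 6 h alone, 20.9% of those of 6 h and 24 h and 7.99% of kept regions, and a 72 h peak lay within 500 bp of 26.2% and 22.8% of the transient classes. The median gap to the nearest solvent peak was 2867 bp at 6 h alone, 4291 bp at 6 h and 24 h and 7739 bp in kept regions. TSSs were 5896 bp away in the median for transient and 11074 bp for kept regions. The summit lay in an intron in 64.0% (62.1 to 65.8) of the regions of 6 h alone and 59.5% (57.8 to 61.3) of those of 6 h and 24 h, and between genes in 25.4% (23.8 to 27.2) and 29.2% (27.6 to 30.8). Coding exons held 2.32% and 5' UTRs 1.75% of the summits of all transient regions, while in regions open in every list 5' UTRs held 5.79%.

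Base composition distinguished the transient classes. Within 100 bp on either side of the summit, the median GC content was 45.3% (95% CI 45.3 to 46.3) at 6 h alone and 47.3% (46.8 to 47.8) at 6 h and 24 h, a difference of -1.99 points (-2.49 to -0.878). Among distal regions the difference was -1.99 (-2.69 to -1.29) and among proximal ones -0.995 (-2.40 to 0.117). A GC content under 40% was found in 27.0% of the regions of 6 h alone and 17.7% of those of 6 h and 24 h, and one of 60% or more in 10.4% and 11.8%. Among the 264 members with a 6 h AUC of at least 400 the difference was -3.48 points, with an interval of -8.38 to 0.768. Kept regions had a median of 45.3% and a GC content of 60% or more in 4.22%, and all merged regions had a median of 48.3%.

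Transient regions thus held more very GC-rich windows than kept regions at a similar median. Read the other way, 43.0% (40.5 to 45.6) of the regions gained at 6 h with a GC content of 60% or more were transient, against 19.7% (19.0 to 20.4) of those between 40% and 50%. The share was 21.5% under 40% GC and 26.3% from 50% to 60%. By chromosome the transient share of gained regions ran from 19.8% on chromosome 18 to 29.8% on chromosome 22 and 32.8% (28.7 to 37.2) on chromosome 19. GC content, distance to promoters and AUC were not set out by chromosome, and their separate parts in these shares were not tested.

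Motifs were sought on both strands within 100 bp of the summit, 15 in all, each a fixed run of letters in which N stands for any base. The letters of no motif contain those of another, though sites can overlap. AP-1 (TGAGTCA) was present in 17.6% (95% CI 16.2 to 19.2) of the regions of 6 h alone and 17.7% (16.4 to 19.1) of those of 6 h and 24 h, a difference of -0.0762 points (-2.07 to 1.94). Kept regions held it in 40.3% (39.6 to 41.0) and all merged regions in 32.4%. Transient regions were 22.6 points (21.4 to 23.8) below kept regions in AP-1 share. Among distal regions alone the shares were 20.7% and 41.5%, and the gap stayed between 16.5 and 25.2 points under every other setting tried. Within 6 h AUC bands the AP-1 share was 17.5% and 18.7% under 250 in the transient classes against 1425 of 3565 kept regions, and 16.7% and 16.9% against 38.6% from 250 to 300. From 300 to 400 it was 18.2% and 17.9% against 39.5%.

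AP-1 was the motif with the widest gap of the 15, and the gap was present in each band of peak size. In the band from 400 to 800 the transient classes also parted, with AP-1 in 27.1% (17.4 to 39.6) of 59 regions of 6 h alone and 14.1% (10.0 to 19.6) of 205 regions of 6 h and 24 h, a difference of 13.0 points (1.87 to 26.1). Kept regions of that band held it in 42.4%. Within GC bands the AP-1 share also stayed lower in transient regions, at 26.9% against 44.2% of kept regions under 40% GC, 17.6% against 41.4% from 40% to 50% and 14.8% against 36.8% from 50% to 60%. Where present, AP-1 sat near the summit in all classes. It lay within 25 bp of it in 52.0% (47.4 to 56.5) of the regions of 6 h alone that had the motif, 53.0% (48.8 to 57.2) of those of 6 h and 24 h and 55.6% (54.5 to 56.8) of kept regions.

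**Figure D2:**
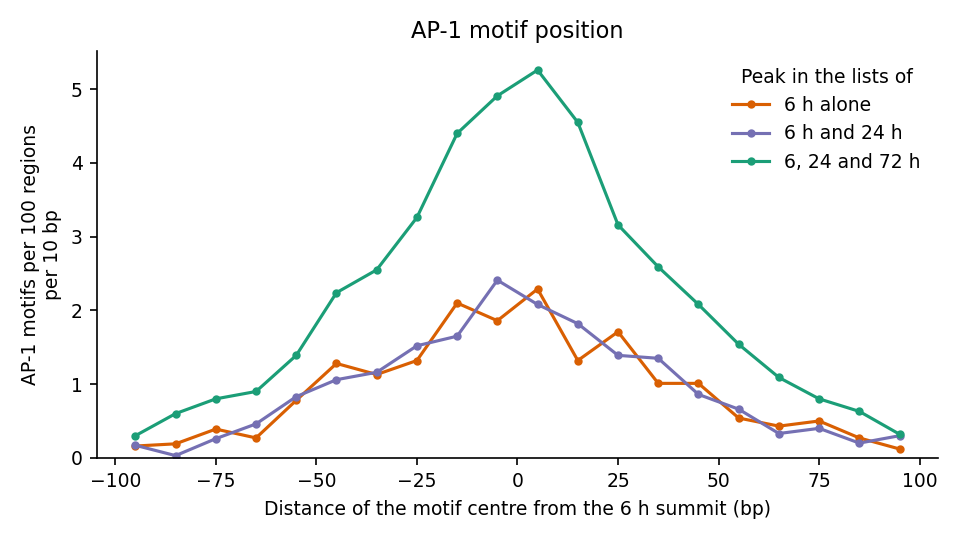
AP-1 motifs per 100 regions in 10 bp steps of distance (bp) from the 6 h summit, by class. All 3 curves peak within 10 bp of the summit, at 2.29 in regions of 6 h alone, 2.41 in those of 6 h and 24 h and 5.26 in kept regions.

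The transient classes differed from each other in C/EBP and in the SMAD box. C/EBP (TTNNGCAA), bound by the CCAAT/enhancer-binding proteins, was found in 17.4% of the regions of 6 h alone and 13.8% (12.6 to 15.0) of those of 6 h and 24 h, a difference of 3.66 points (1.76 to 5.58). Kept regions held it in 11.7% and all merged regions in 12.7%. Among distal regions the C/EBP shares were 20.3% and 14.9%, 5.39 points apart (2.86 to 7.94). Because the motif is rich in A and T, it was also read within GC bands, where 24.3% (21.3 to 27.6) and 20.1% (16.9 to 23.7) of the classes held C/EBP under 40% GC, 20.5% and 15.9% from 40% to 50%, 10.2% and 10.1% from 50% to 60%, and 3.72% and 4.78% at 60% or more. Under 40% GC the intervals of the classes overlapped.

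The SMAD box (CAGACA), a short element bound by SMAD3 and SMAD4, went the other way. It was present in 14.8% (95% CI 13.5 to 16.2) of the regions of 6 h alone, 19.9% (18.5 to 21.3) of those of 6 h and 24 h, 23.2% (22.6 to 23.9) of kept regions and 18.5% of all merged regions. The difference between the transient classes was -5.06 points (-7.03 to -3.07) and -5.59 points (-8.11 to -3.02) among distal regions. The SMAD box share was lower at 6 h alone in each GC band, with 10.9% against 16.6% under 40%, 15.6% against 19.6% from 40% to 50%, 17.6% against 23.7% from 50% to 60% and 15.6% against 17.1% at 60% or more. The SMAD palindrome (GTCTAGAC) was rare, with 0.233% and 0.264% of the transient classes, 0.575% of kept and 0.297% of all merged regions.

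Motifs of epithelial and mechanical regulators showed smaller gaps between transient and kept regions than AP-1. RUNX (TGTGGT) was present in 12.9% of transient, 18.4% of kept and 16.8% of all merged regions, and TEAD (GGAATG), the site of the partners of YAP and TAZ, in 12.8%, 17.3% and 15.9%. The E-box of SNAIL and ZEB (CACCTG), bound by EMT repressors and also by other factors, was present in 20.5% of the regions of 6 h alone, 18.5% of those of 6 h and 24 h, 14.8% of kept and 18.0% of all merged regions. The transient share exceeded the kept share by 4.57 points (3.43 to 5.75). KLF (GGGNGTGGC) was present in 2.93% of transient, 1.42% of kept and 2.46% of all merged regions.

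Other motifs differed by less than C/EBP and the SMAD box between the transient classes. NF-kappaB (GGGNNTTCC) was present in 2.37% and 3.27%, a difference of -0.902 points (-1.77 to -0.0235), with 3.46% of all merged regions. Among distal regions alone the NF-kappaB difference was -1.30 points (-2.35 to -0.240). CTCF (CCACNAGG) was present in 4.62% and 6.14% and in 5.35% of all merged regions, with a class difference of -1.52 points (-2.70 to -0.333) that among distal regions alone was -0.991 (-2.53 to 0.574). The steroid receptor motif (ACANNNTGT) was present in 6.60% and 6.57% (6.87% of all), FOX (TGTTTAC) in 3.69% and 3.83% (3.53%), and GRHL (AACCNGTT), a motif of epithelial Grainyhead-like factors, in 1.59% and 1.32% (1.32%). ETS (CCGGAAG) was found in 1.24% and 1.22% (2.57%) and CRE (TGACGTCA) in 0.155% and 0.0991% (0.523%). A match of letters does not show binding, and with 15 motifs compared some intervals may miss 0 by chance.

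Among the 24437 regions gained at 6 h, the transient share was set out by peak size, position and AP-1. It was 41.7% (95% CI 40.6 to 42.9) at a 6 h AUC under 250, 29.4% from 250 to 300, 15.5% from 300 to 400 and 4.80% (4.27 to 5.40) from 400 to 800. In every band distal regions with AP-1 had the lowest share. Under 250 it was 23.8% (21.8 to 25.9) with the motif, 44.2% (42.5 to 45.9) without it and 52.4% (50.2 to 54.6) in proximal regions. From 300 to 400 the same shares were 7.05% (5.97 to 8.30), 16.1% (14.9 to 17.5) and 24.2% (22.1 to 26.3). Over all gained regions 11.6% of those with AP-1 and 29.0% of those without it were transient.

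Transient regions were also set beside 2389 regions that had solvent and 6 h peaks and none at 72 h. The latter are called closing regions, which names this pattern of peak calls alone. These closing regions were proximal in 36.6%, close to the 37.5% of transient regions (difference 0.902 points, -1.42 to 3.20). Closing regions had a larger median 6 h AUC than transient regions, 351 against 249, and a larger median width, 267 bp against 205 bp. They differed in sequence as well, in shares that are not split by peak size here. AP-1 was present in 7.79% (95% CI 6.78 to 8.93) of closing and 17.7% of transient regions, C/EBP in 25.5% (23.8 to 27.3) and 15.5%, and the E-box of SNAIL and ZEB in 27.2% and 19.4%. The C/EBP share of 17.4% in regions of 6 h alone lay between those of closing and of kept regions. The median GC content of closing regions was 48.8%, 2.49 points (1.99 to 2.99) above that of transient regions.

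The nearest TSS to the summit gave each region its gene. The 5602 transient regions fell to 4798 genes, 13.0% of the 36769 genes nearest to any merged region. Of these genes 4152 had 1 transient region, 526 had 2, 94 had 3 and the rest had 4 to 8, and 338 had regions of both classes. Protein-coding genes were 53.8% of them and lncRNA genes 26.1%. A region with a solvent peak was assigned to 83.5% of them and a kept region to 42.6%. Counting protein-coding genes alone gave 4039 genes.

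The genes with the most transient regions were long. They were ranked on this count, so their shares describe the selection, beside 4.42% of all regions. TRPS1, a GATA-type repressor of the mammary epithelium, had 8 of its 56 regions transient, 6 of them at 6 h alone. GMDS, an enzyme of fucose synthesis, had 6 of 37, and PDE4D, a cAMP phosphodiesterase, 6 of 40, of which 5 were at 6 h alone. PRKAG2, a subunit of AMP-activated kinase, had 5 of 37 and TBL1XR1, a part of nuclear corepressor complexes, 5 of 13. PRKCH, an isoform of protein kinase C, had 4 of 45 and ARHGAP18 had 4 of 17. The 10 genes ranked by this count were 105 to 1553 kb long. All 4 of ARHGAP18, which encodes a GTPase-activating protein, were at 6 h alone, with areas of 215, 466, 291 and 250.

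PIK3C2G, a class II phosphoinositide kinase, had transient regions as 5 of its 9, the largest share of these 10 genes. All were intronic and 4 of them lay 2148 to 5261 bp downstream of a TSS, between chr12:18264782 and 18268068. Their 6 h areas were 238, 278, 336 and 244, and the 24 h areas of the 3 that had one were 205, 277 and, in the last, a value at the calling limit. The fifth, 13688 bp downstream, had 297 at 6 h and 247 at 24 h. All 4 regions with a 24 h peak had a lower area at 24 h, as did 48.4% of all regions of 6 h and 24 h. The solvent list had 1 region of this gene, the 6 h and 24 h lists 8 each and the 72 h list 3.

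Transient regions were then counted for 11 gene lists, beside the 13.0% of genes and the 4.42% of regions over the whole table. Of the actin and contractile genes 5 of 15 had one, and 11 of their 118 regions (9.32%, 95% CI 5.29 to 15.9) were transient, 9 of these at 6 h alone. ACTN1, an actin cross-linker, had 5 of 21. Those with peaks at both times had 393 at 6 h and 350 at 24 h, 1801 bp downstream of a TSS, and 353 and 357, 4744 bp upstream of one. The other three, at 6 h alone, had 209, 203 and 203. TPM1, a tropomyosin, had 246 and 292 at 6 h alone. FLNA, an actin filament linker, had 243 and 226 at 6 h alone, the latter 17 bp from a TSS. VCL, a focal adhesion protein, had 223.

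Of the epithelial adhesion and identity genes 7 of 24 had a transient region, and 10 of 181 regions (5.52%, 3.03 to 9.87) were transient, 7 of them at 6 h alone. Besides DSG3, RBM47, an RNA-binding splicing regulator, had 350 at 6 h and 295 at 24 h in one region and 267 at 6 h alone in another. GRHL3, an epidermal transcription factor, had 346 at 6 h and 443 at 24 h, 427 bp downstream of a TSS, and an area at the limit of 200 at 6 h alone 100 bp upstream of one. CLDN7, a tight junction claudin, had 250 at 6 h and 305 at 24 h in a coding exon and 231 at 6 h alone. ESRP1, TP63 and KRT5 had 1 region each at 6 h alone, with areas of 321, 291 and 249. DSG3, with 554, had the highest 6 h area of the list.

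For the pathway's own genes both intervals of the transient share included the 4.42% of all regions. Of the TGF-beta ligands, receptors and SMADs 3 of 20 genes and 4 of 182 regions (2.20%, 0.858 to 5.51) were counted. BMPR1B, a BMP receptor, had 253 and 222 at 6 h and 228 and 212 at 24 h. BMPR1A, a related receptor, had 275 and 244. SMAD3, the effector of TGFβ receptors, had an area at the limit of 200 at 6 h alone, 557 bp upstream of a TSS. Of the feedback regulators 4 of 18 genes and 5 of 151 regions (3.31%, 1.42 to 7.52) were counted. The ubiquitin ligase SMURF1 had 258 at 6 h with 233 at 24 h, and 208 at 6 h alone. ID2, an inhibitor of helix-loop-helix factors, had 448 and 400 at 414 bp downstream of its TSS. SKI, a SMAD corepressor, had 334 and 289, and LTBP2, of the family of latent TGFβ binding proteins, had 208 at 6 h alone. All of these regions with peaks at both times had a lower area at 24 h, as did 48.4% of all regions of 6 h and 24 h.

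Signalling and early response genes had single regions for the most part. Of the AP-1 subunits 3 of 13 genes had one, with 4 of 53 regions (7.55%, 2.97 to 17.9). ATF3 had 363 at 6 h and 288 at 24 h in one region and 227 at 6 h alone in another. FOSL1 had 244 and 363, and MAFK had 227 at 6 h alone. Of the immediate early genes 1 of 17 had one, the nuclear receptor NR4A3 with 282 at 6 h alone. Of the ERK feedback regulators 1 of 12 had one. It lay in a coding exon of SPRY2, an inhibitor of receptor kinase signalling, 1958 bp downstream of the TSS, and had 599 at 6 h and 606 at 24 h (chr13:80336818-80337849), the highest area of any listed gene. Of the NF-kappaB regulators and cytokines 1 of 18 had one, near the chemokine gene CCL20, with 336 at 6 h and an area at the limit of 200 at 24 h.

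Of the EMT transcription factors 2 of 13 had a transient region, both at 6 h alone, with 226 in an intron of ZEB2, a repressor of epithelial genes, and 218 upstream of ETS2. Of the mesenchymal and matrix genes 7 of 25 had one, with 8 of 221 regions (3.62%, 1.85 to 6.98). CDH2, the cadherin gained in EMT, had 220 at 6 h with 249 at 24 h, and 213 at 6 h alone. ITGB3 and ITGA5, integrin subunits, had 294 at 6 h alone and 257 with 226. PRR5L had 375 at 6 h alone. It stands in the list because the study showed it from these samples, so its place is not independent. Of the glucocorticoid receptor and targets 2 of 12 had one, with 255 at 6 h alone and 250 with 289 in introns of NR3C1, the receptor itself, and 239 upstream of TSC22D3. Of all 11 lists only the interval of the actin list lay wholly above 4.42%, and 11 intervals were read. Assigned to protein-coding genes alone, 12 of 170 regions of that list (7.06%, 4.08 to 11.9) were transient, and its interval then included 4.42%. That assignment gave more genes with a transient region in every list, among them 7 of 17 immediate early genes, 7 of 12 ERK feedback regulators and 7 of 13 EMT transcription factors. The transient shares of their regions were 2.95%, 2.94% and 4.40%, with intervals that included 4.42%. For the mesenchymal and matrix genes it was 11 of 489 regions (2.25%, 1.26 to 3.98). The share over all genes was not computed under that assignment, so the gene counts it gave cannot be set beside the 13.0%.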

How the data were processed

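ATAC-seq peak lists of 4 conditions (solvent and 6, 24 and 72 h of TGFβ1, 2 libraries each) were analysed. Per the study's methods and the submitters' processing notes, the authors used Trimmomatic 0.38 for adapters and quality, Bowtie2 2.4.5 for mapping to GRCh38, Picard for duplicates, SAMtools 1.4.1 for filtering and Genrich 0.5 for peaks of both replicates together, with an AUC above 200 and blacklisted regions removed. The deposited signal of a peak is its AUC. Deposited −log10 q values were read as well and enter no printed result. Lists were matched to conditions by their names. The lists hold no reads, totals or replicate values, so the depth is unknown, which leaves weak calls least certain. A figure legend of the study gives a solvent exposure of 72 h, other than the labels' time 0.

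Peaks sharing 1 bp or more were merged across the lists. The AUC of a region was the sum over its peaks in a list, and 1 transient region held more than 1 peak of the 6 h list. Genes, proximal regions (3 kb) and UTRs came from GENCODE 44 and sequence from hg38, whose chromosome names match the lists. GC content and 15 motifs were read from 100 bp before to 100 bp after the 6 h summit, or, for regions without a 6 h peak, around the summit of largest AUC. Shares have Wilson intervals, their differences Newcombe intervals, medians order-statistic intervals and differences of medians the 2 intervals combined in quadrature, all at 95%. Merging, motif search and intervals were checked on simulated regions and sequences.

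The members, gene lists, motifs and comparisons were chosen with earlier results of these data known. Named were the 6 regions of largest 6 h AUC per class, the 10 genes with most transient regions, up to 4 genes per list by summed 6 h AUC, and the 6 largest and 6 smallest 24 h over 6 h ratios at a 6 h AUC of at least 400. ESRP1, TP63 and KRT5 were named in addition after their values were seen. Some items that this rule names are not reported here. Windows touching a UTR or on chromosome 8 were not printed. Alternatives covered AUC minima, list length, merging, overlap, definitions of proximal, windows and gene assignment. Python 3.11.15, numpy 2.4.6, pandas 2.3.3, scipy 1.17.1, pysam 0.24.0 and matplotlib 3.10.9 were used.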

Additional observations from a re-analysis of the deposited data

How the results depend on the processing

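Of 71 values recomputed under other settings, 40 stayed near the main value and 31 moved. AP-1 was the only motif among them. The class differences in C/EBP, the SMAD box, NF-kappaB and CTCF were read among distal regions and, for the first 2, in GC bands. They were not recomputed under the other settings. Among the 71 values no difference whose interval left out 0 changed sign. Those near 0 did: the class difference in AP-1 share (-0.0762) became positive under several settings, that in proximal share (1.56) was -0.190 with proximal set at 1 kb and -2.02 for members of a 6 h AUC of at least 400, and the median log2 ratio turned from 0.01 to -0.39 for the latter. With an AUC of at least 400 in every list, the class difference (6 h alone minus 6 h and 24 h) in median log2 6 h AUC was -0.10 and that in AP-1 share 2.35 points. With lists of equal length, 2362 regions were transient near 2180 genes, and the differences were 5.53 points in proximal share, -0.14 in log2 AUC and 2.84 points in AP-1 share, with a median log2 ratio of 24 h over 6 h of 0.24. With members of a 6 h AUC of at least 400, which restricts kept regions likewise, 264 regions near 260 genes were left, and the differences were -2.02 points in proximal share, -3.48 in GC content, -0.06 in log2 AUC and 13.0 points in AP-1 share, with a median log2 ratio of -0.39. With AUC per base the log2 AUC difference was -0.11. The median log2 ratio was 0.04 with peaks within 500 bp merged and 0.04 for distal regions alone. Among regions over 1 kb from any solvent or 72 h peak, 3647 were transient and the ratio was 0.06. The settings on distal regions and on distance, and the comparisons with kept regions, were added after seeing the data. The causes were not tested. No paired analysis was possible because the lists are pooled over both replicates, and for the same reason no replicate could be left out. Weak peaks near an AUC of 200 are where unknown depth limits the calls most.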
